A study of Mus musculus with 2 samples.

Results

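Transcripts of 5 gene families that steer membrane traffic inside the cell were compared between follicular and marginal zone B cells of the mouse spleen. Members were chosen by gene symbol alone: names that start with Rab, Arl, Vps or Snx followed by a digit, and Arf1 to Arf6. Of 12393 genes with a probe set annotated to them alone, 117 belonged to these families: 56 Rab, 6 Arf, 6 Arl, 28 Vps and 21 Snx genes. Each gene was represented by its probe set with the highest mean log2 signal, called its leading probe set. The rule for members uses symbols and no measured value.

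Gene expression was read on 2 single-channel arrays, 1 per population, from total RNA of cells sorted after enrichment on B220. The mice were wild-type C57BL/6 females, with B cells taken from 3 animals and sorted cells pooled; the sources used here give no age and do not say whether the same animals supplied both populations. Follicular cells carried high CD23 and intermediate CD21, marginal zone cells intermediate CD23 and high CD21, and neither population had been treated. With 1 array per population there is no replicate error and no test between the populations, so differences are given as sizes. Values are MAS5 signals on a linear scale after both arrays were brought to the same trimmed mean, with follicular before marginal zone. Signals under 12.7, the median of all scaled values, were taken as 12.7 when a ratio was formed, and a gene counted as measured when either array exceeded that floor. In bulk RNA, fewer cells that express a gene and less RNA per cell cannot be told apart.

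Rab proteins are small GTPases that mark membrane compartments and, when bound to GTP, recruit motors, tethers and coats. Arf GTPases start coat formation at the Golgi and the plasma membrane, and the related Arl proteins act in Golgi tethering and cilia. Many Vps proteins are subunits of complexes that fuse, sort or bud endosomal membranes, and sorting nexins bind endosomal phosphoinositides through their PX domain. B cells rely on these routes to carry the antigen receptor and its cargo to compartments where MHC class II is loaded, and later to secrete antibody.

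The sort was visible in its own markers, which chose the cells and are no result: Fcer2a, encoding CD23, was at 726.8 and 89.6, and Cr2, encoding CD21, at 277.9 and 889.9. All 7 B cell markers with a probe set of their own were measured. The marginal zone signal was higher for 3 of them and the follicular signal for 4. Ms4a1 was at 1754 and 1878, Cd79b at 1040 and 545.9, and Blk at 178.7 and 392.5. Of 14 macrophage and monocyte markers 8 were measured, all 8 higher on the marginal zone array, with summed signals of 75.4 and 196.0. Only 3 of the 8 were above the floor on both arrays. Csf1r was at 17.3 and 42.5, Lyz2 at 12.9 and 25.2, and Adgre1 at 23.7 and 24.9. The rest, Cd5l, C1qb, Cd68, Cd14 and Vcam1, passed the floor on the marginal zone array alone, which fixed their direction. C1qa, C1qc, Itgam, Hmox1, Marco and Fcgr1 were below the floor on both arrays. Of 7 plasma cell markers 6 were measured and 4 of these were higher on the marginal zone array, including Prdm1 at 12.7 and 30.9, while Sdc1 was at 68.3 and 4.4, at least 5.39-fold the other way and the largest difference of that list. Their probe sets did not all match. As log2 of marginal zone over follicular signal, another probe set of Sdc1 gave only -0.315. Xbp1, counted as higher in marginal zone cells, had another at -0.983, and Irf4, nearly equal, had another at 0.443. T cell markers were measured for 4 of 8 genes, none above the floor on both arrays, and neutrophil and erythroid lists likewise had none above it on both. Summed dendritic cell markers were at 202.1 and 134.3 over 4 genes, a sum carried by Cst3 at 169.4 and 86.9, and the other 3 were slightly higher on the marginal zone array. Further, 1 NK cell and 1 platelet marker were measured. The part of such cells in the differences given here was not tested.

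Most of the trafficking genes had similar signals in both populations, with a slight lean towards follicular cells. Of the 117 genes, 93 were measured, 83 of them above the floor on both arrays, and 24 were not measured. Over the whole array, 4698 of 12393 genes were not measured. Ratios are log2 values with marginal zone on top, so negative ones mean a higher follicular signal. Their median was -0.11 over the 93 genes, with an interquartile range from -0.46 to 0.11, beside -0.03 and a range from -0.38 to 0.32 over all 7695 measured genes. The follicular signal was the higher one for 55 of 93 members (59.1%), against 52.2% of all measured genes. The spread of the ratios was no wider than elsewhere, with an SD of 0.53 for members and 0.61 for all genes.

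Few members differed by 2-fold or more. Marginal zone signals exceeded follicular ones by that much for 3 of 93 members (3.23%), Rab30, Arf2 and Rab3gap2, beside 4.39% of all measured genes. The reverse held for 2 of 93 (2.15%), Rab8a and Vps37b, beside 4.86% of all measured genes. At 1.5-fold the counts were 11 (11.8%) in marginal zone cells beside 13.7% of all genes, and 16 (17.2%) in follicular cells beside 15.8%. The members' shares were near or below those of the whole array in both directions.

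**Figure D1:**
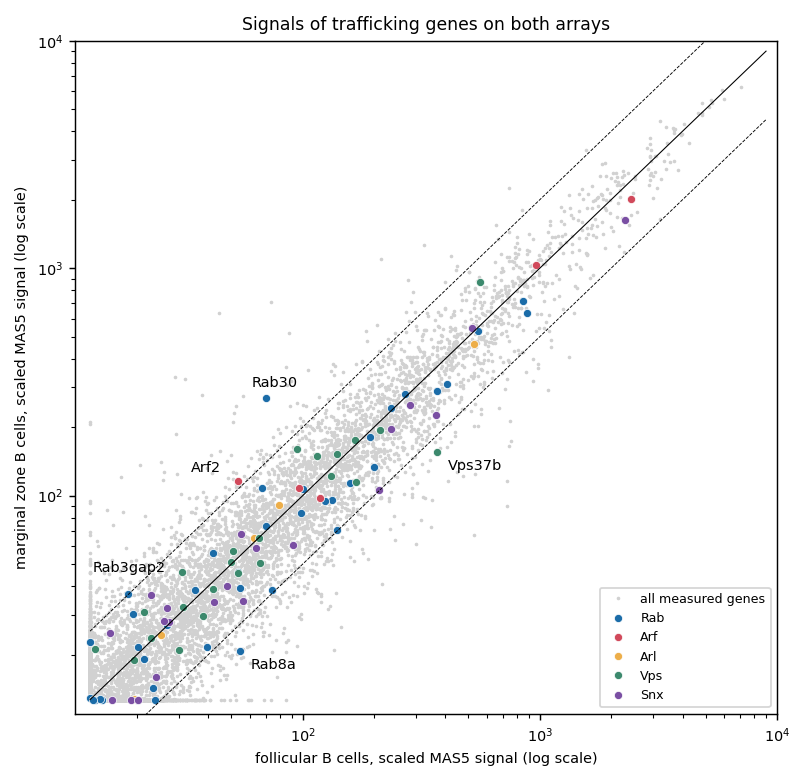
Scaled MAS5 signal of each measured gene in follicular (x axis) and marginal zone B cells (y axis), both on log scales, with lower values drawn at the floor of 12.7. Grey points are all measured genes, coloured points the 93 measured members by family, the solid line marks equal signals and the dashed lines 2-fold differences. Most members lie between the dashed lines, and Rab30, Arf2 and Rab3gap2 above them face Rab8a and Vps37b below.

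The probe sets of a gene give the only repeat reading in this design, and they cover probe behaviour but not mice, sorts or labellings. Among the measured members, 32 had several measured probe sets. In 16 of these 32 the probe sets fell on both sides of 0. The root mean square SD between probe sets of a member was 0.37 on the log2 scale, so a ratio under about that size is within the disagreement of probe sets. For 61 members only 1 probe set was measured and no such check exists. These include all 5 members past 2-fold.

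Rab30, a GTPase of the Golgi apparatus, stood farthest from equality. Its signals were 69.8 in follicular and 267.7 in marginal zone cells, 3.83-fold higher in marginal zone cells. It was the one member past 3-fold, and its log2 ratio stayed between 1.76 and 1.99 under every other scaling, floor and probe set rule that could be applied to it. Rab30 rests on 1 measured probe set.

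Arf2 and Rab3gap2 were the other members past 2-fold in marginal zone cells. Arf2, an Arf of the same class as Arf1 and Arf3, was at 53.1 and 116.3, 2.19-fold higher; its other 3 probe sets were below the floor. Rab3gap2, the non-catalytic subunit of a complex that acts on Rab3 as a GTPase activator and on Rab18 as an exchange factor, was at 18.4 and 37.0, 2.01-fold higher. Both signals of Rab3gap2 lie near the floor, and with the floor used as a pseudocount its log2 ratio was 0.68, while that of Arf2 was 0.97, both under 2-fold. In that setting, where low values are not raised, Rab5b, Snx21 and Snx29 passed 2-fold towards follicular cells.

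On the follicular side Rab8a, which carries vesicles from the Golgi and recycling endosomes to the plasma membrane, was at 54.3 and 20.7, a follicular excess of 2.62-fold. With the floor raised to the 75th percentile its log2 ratio shrank from -1.39 to -0.25. Its close relative Rab8b was at 191.6 and 180.4, a log2 ratio of -0.09. Vps37b, a subunit of ESCRT-I, which gathers ubiquitinated receptors for sorting into multivesicular bodies, was at 368.5 and 155.9, a follicular excess of 2.36-fold. Its log2 ratio lay between -1.24 and -1.18 under every alternative run on it.

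The bases before the transcription start are shown for 3 of the 5 members past 2-fold, those that the RefSeq promoter table of GRCm38.p6 holds. Each run is the 250 bases upstream of a listed start, 5′ to 3′ on the gene's strand. Capitals mark CACGTG, the E-box that MiT and Myc family factors can bind, and TGGGAA or its reverse complement TTCCCA, the core recognised by RBPJ, the DNA-binding partner of Notch. Notch2 signalling is known to be required for marginal zone B cells.
Arf2 (chr11:103966475-103966724, + strand): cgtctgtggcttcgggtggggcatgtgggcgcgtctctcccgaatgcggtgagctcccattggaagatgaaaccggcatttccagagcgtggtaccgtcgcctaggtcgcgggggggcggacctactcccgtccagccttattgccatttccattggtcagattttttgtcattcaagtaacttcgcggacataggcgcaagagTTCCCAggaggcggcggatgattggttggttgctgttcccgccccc
Rab3gap2 (chr1:185203918-185204167, + strand): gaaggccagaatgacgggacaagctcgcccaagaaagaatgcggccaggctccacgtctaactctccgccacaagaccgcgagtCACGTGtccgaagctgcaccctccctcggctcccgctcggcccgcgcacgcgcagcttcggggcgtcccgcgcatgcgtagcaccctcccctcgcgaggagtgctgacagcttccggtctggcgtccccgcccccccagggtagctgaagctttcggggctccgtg
Rab8a (chr8:72160950-72161199, + strand): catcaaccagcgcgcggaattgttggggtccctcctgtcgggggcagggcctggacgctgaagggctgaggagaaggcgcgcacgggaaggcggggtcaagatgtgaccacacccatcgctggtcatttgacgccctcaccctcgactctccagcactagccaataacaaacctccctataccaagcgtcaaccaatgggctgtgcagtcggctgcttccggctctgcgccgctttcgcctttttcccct
Arf2 has 1 TTCCCA in this window, Rab3gap2 has 1 CACGTG, and Rab8a has 0 matches to either. A match is a description of the letters, not of binding. TGGGAA on either strand was found in 21.6% of all 32851 windows of this length in the table and in 32 of the 121 windows (26.4%) of the 92 members listed there. The median log2 ratio was -0.377 over the 22 measured members with this motif and -0.109 over the 49 without it. A link between the motif and the direction of a difference was not tested.

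The Rab family was measured for 39 of its 56 genes, with a median log2 ratio of -0.16; 25 of the 39 had the higher follicular signal. At 1.5-fold, 5 (12.8%) differed towards marginal zone and 8 (20.5%) towards follicular cells, beside 13.7% and 15.8% of all genes. The median stayed below 0 under each of the other scalings, floors and probe set rules, between -0.23 and -0.11.

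Of 10 measured Rabs of the early secretory pathway, 7 had the higher follicular signal, with a median of -0.22, and Rab30, Rab1b and Rab2a the higher marginal zone signal. Rab43, a Golgi Rab, was at 74.3 and 38.5, a follicular excess of 1.93-fold, and Rab18, of endoplasmic reticulum and lipid droplets, at 200.4 and 133.4. Rab1a and Rab1b, close relatives that carry cargo from the endoplasmic reticulum to the Golgi, went opposite ways. Rab1a was at 884.8 and 634.6 by its leading probe set, with the other at a log2 ratio of 0.10, and Rab1b was at 41.7 and 56.1. Rab6a, of retrograde Golgi traffic, was at 98.0 and 83.6, and Rab33b at 124.3 and 94.4. Rab2a shows how far probe sets can part: the leading one gave 236.1 and 241.7, while another gave a log2 ratio of -1.33. Rab2b was at 53.2 and 46.1 with probe sets from -0.93 to 0.39, and Rab33a exceeded the floor only in follicular cells, at 14.2. Probe sequences were not used here, so reading across close relatives was not tested.

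Rabs of early and recycling endosomes differed in direction. Of 11 measured, 6 (54.55%) had the higher follicular signal, beside 52.2% of all measured genes, and 5 the higher marginal zone signal. Their median was -0.24, beside -0.03 over all genes. Among the 3 forms of Rab5, the regulator of early endosome fusion, Rab5a was at 270.0 and 280.1 and Rab5c at 35.2 and 38.6. Rab5b was at 23.9 and 0.5, a follicular excess of at least 1.89-fold relative to the floor. Rab11a, which governs slow recycling, was at 157.9 and 113.9 with both probe sets lower in marginal zone cells, while Rab11b was at 100.6 and 106.7. Rab21, linked to integrin uptake, was at 133.5 and 95.2, and Rab22a at 54.4 and 39.4; all 5 probe sets of these 2 genes had the higher follicular signal. Rab15 was at 23.4 and 14.2, a follicular excess of 1.66-fold. Rab4b, of fast recycling, went the other way at 67.2 and 107.7, 1.60-fold higher in marginal zone cells; Rab4a was below the floor on both arrays. Rab14, between the Golgi and endosomes, was at 847.6 and 720.0 with 5 probe sets from -0.40 to 0.19. Rab31 was at 20.2 and 21.5, with its other probe set at a log2 ratio of -0.41.

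Late endosomal Rabs were split between equality and larger differences. Rab7, the main Rab of late endosomes and lysosomes, was at 546.7 and 529.8, nearly equal, with its other probe set at a log2 ratio of 0.52. Rab9, which returns mannose 6-phosphate receptors from late endosomes to the Golgi, was at 139.5 and 70.3, a follicular excess of 1.99-fold that is just short of the 2-fold line. Rab24, linked to autophagy, was at 10.9 and 22.8, a marginal zone excess of at least 1.80-fold, and its second probe set gave 0.69 on the log2 scale. Rab29, a partner of the kinase Lrrk2, was at 12.3 in marginal zone cells, under the floor, and showed a follicular excess of at least 1.58-fold. Rab12 was at 26.8 and 27.1, and Rab38, at 13.3, and Rab7b exceeded the floor only in follicular cells and only narrowly.

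Of 11 secretory and granule Rabs, 6 were not measured, beside 4698 of all 12393 genes. Rab3a, Rab3b, Rab3c, Rab13, Rab27a and Rab27b were below the floor on both arrays, and Rab3d and Rab37 only just passed it, at 14.0 and 12.8 and at 5.0 and 12.9. Besides Rab8a and Rab8b, Rab10, which serves transport to the plasma membrane, was at 407.5 and 308.8, with 3 probe sets from -0.50 to 0.23. Of the remaining Rabs, Rab28 was at 69.9 and 73.6 and Rab40c at 21.5 and 19.2.

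Some symbols of the Rab family belong to partner genes rather than to GTPases. Rab3ip, also called Rabin8, the exchange factor that activates Rab8, was at 39.6 and 21.5, a follicular excess of 1.84-fold. Rab8a and the gene of its activator had the same direction, which was also that of 55 of the 93 measured members. Whether the 2 genes vary together was not tested. Rab5if was at 367.2 and 288.6, and the opposite-strand transcript Rab26os at 19.3 and 30.2, 1.56-fold higher in marginal zone cells. Without these partners, the members past 2-fold in marginal zone cells numbered 2, Rab30 and Arf2.

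**Figure D2:**
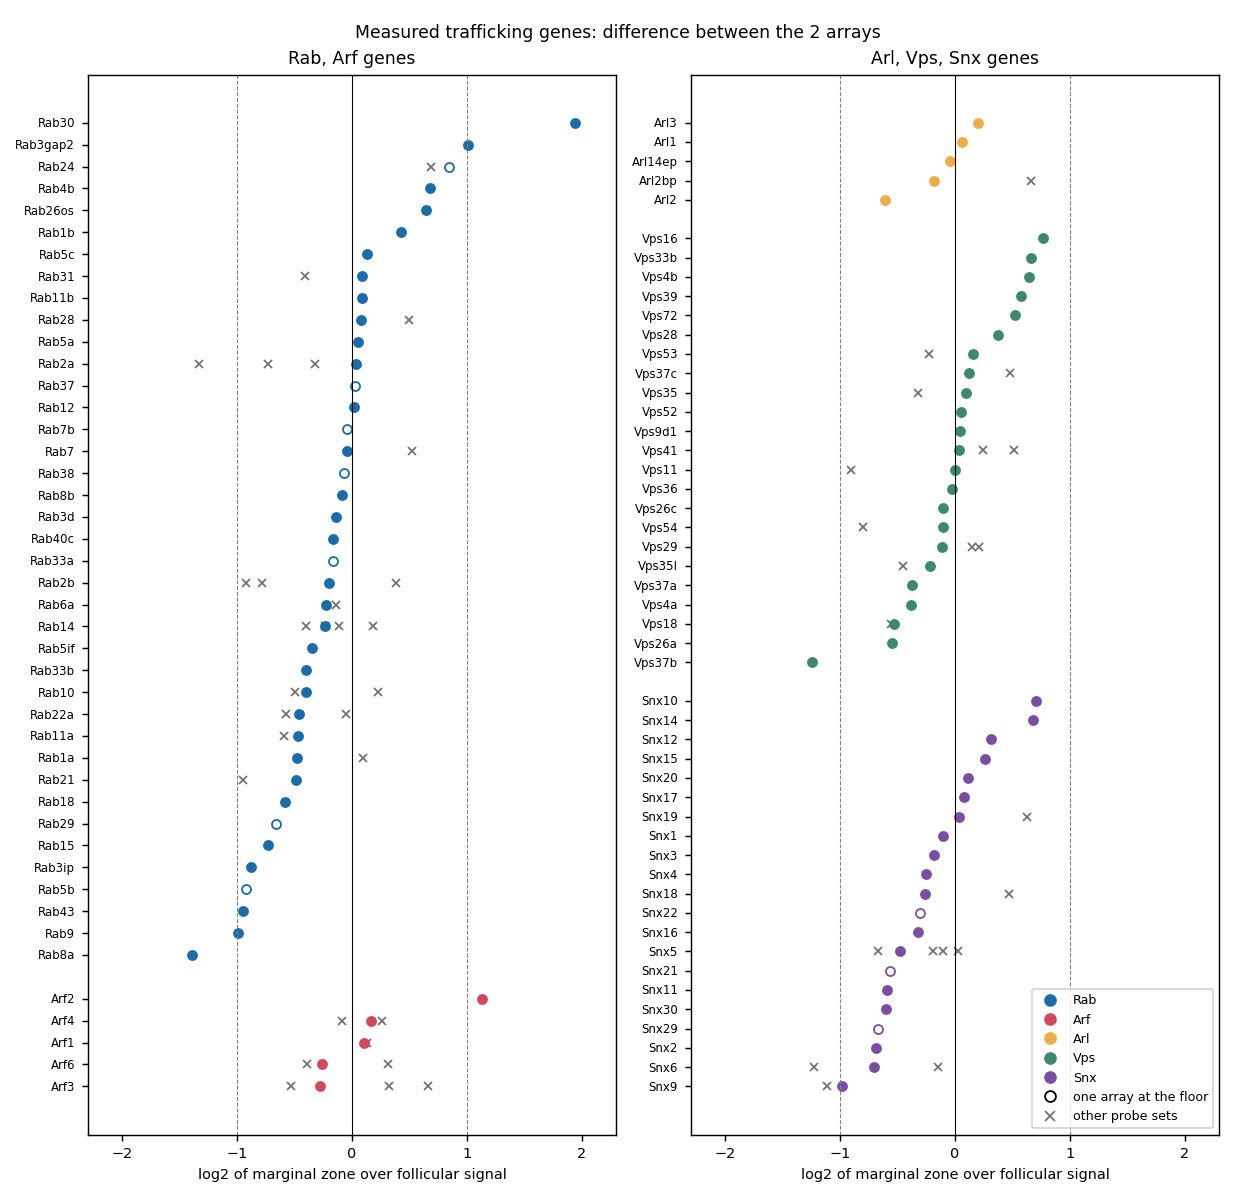
Log2 ratio, marginal zone to follicular signal (x axis) for each of the 93 measured members (rows), ordered within each family. Filled circles are the leading probe set of a gene, open circles genes with 1 array at the floor, and crosses the gene's other measured probe sets; dashed lines mark 2-fold. Rab30 at 1.94 and Rab8a at -1.39 are the ends of the range, and the crosses of genes such as Rab2a lie far from their circles.

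Among Arf GTPases, Arf2 was the exception in a family with nearly equal signals. Arf1, which recruits COPI and adaptor coats at the Golgi, was at 962.0 and 1036, and Arf4 at 96.0 and 107.8. Arf6, which acts at the plasma membrane in endocytic recycling and actin remodelling, was at 2424 and 2016, and Arf3 at 118.2 and 97.2. All 4 were within 1.5-fold, and the probe sets of Arf3, Arf4 and Arf6 lay on both sides of 0. Arf5 was below the floor on both arrays. Of the Arl genes, Arl2, which takes part in tubulin folding, was at 19.5 and 12.8, a follicular excess of 1.53-fold. Arl1, of Golgi tethering, was at 62.4 and 65.1, and Arl3, which releases lipidated cargo, at 79.3 and 91.2. The Arl2 partner Arl2bp was at 528.3 and 466.2, with its second probe set 1.59-fold higher in marginal zone cells, and Arl14ep was at 25.3 and 24.4. The median over the 10 measured Arf and Arl genes was 0.01; it turned to -0.01 after quantile normalization and to -0.11 with plain probe sets, those whose identifier carries no suffix letter.

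Vps genes had a median log2 ratio of 0.03 over 23 of 28 genes, with 12 ratios above 0 and 11 below. At 1.5-fold, 3 differed towards marginal zone cells, close to the 13.7% of all genes, and 1 (4.35%), Vps37b, towards follicular cells, beside 15.8%. The sign of this median changed under 3 of 13 alternatives, none of them another scaling.

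Within ESCRT, the machinery that buds vesicles into endosomes, subunits differed in direction. Beside Vps37b, its relative Vps37c was at 140.1 and 152.4 and Vps37a at 38.1 and 29.4. The shared ESCRT-I subunit Vps28 was at 115.3 and 149.6, and the ESCRT-II subunit Vps36 at 19.4 and 19.0. Vps4b, an ATPase that disassembles ESCRT-III, was at 558.8 and 871.2, a marginal zone excess of 1.56-fold, and its paralogue Vps4a was at 65.8 and 50.4, a follicular excess of 1.31-fold. Whether paralogues differed from each other was not tested. Vps25 was below the floor by its own probe set; a probe set annotated to both Ramp2 and Vps25 gave 33.5 and 43.0 and was left out.

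The HOPS and CORVET tethers, which join endosomes to each other and to lysosomes, are described with the related Vps33b, which works with Vipas39 rather than in HOPS itself. The median was 0.31 over these 6 genes, 4 of them higher in marginal zone cells, and 0.03 over the 5 without Vps33b. Vps16 was at 94.5 and 160.8, 1.70-fold higher there, Vps33b at 13.3 and 21.1, 1.58-fold, and Vps39, a HOPS subunit, at 31.0 and 46.3, 1.49-fold. Against these, Vps18 was at 30.2 and 20.9, with both probe sets higher in follicular cells. Vps11 was at 65.3 and 65.1 by its leading probe set and at -0.90 by the other, and Vps41 was at 0.03 by its leading probe set and at 0.24 and 0.51 by the others. None of the 6 reached 2-fold.

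Retromer, which retrieves receptors from endosomes, was close to equal in its core. Vps35 was at 165.4 and 176.4, with its second probe set at a log2 ratio of -0.33. Vps29 was at 211.3 and 195.1, with its other measured probe sets at 0.15 and 0.21. Vps26a was at 167.2 and 114.6, a follicular excess of 1.46-fold. Vps26b was below the floor on both arrays. The related retriever subunits Vps26c, at 41.9 and 39.0, and Vps35l, at 53.1 and 45.5, differed by 1.08-fold and 1.17-fold. The GARP subunits Vps52, Vps53 and Vps54, which tether endosome-derived vesicles at the Golgi, had log2 ratios from -0.11 to 0.16 by their leading probe sets. The second probe set of Vps54 gave -0.80 and that of Vps53 gave -0.22. Vps72, a chromatin protein that shares the symbol but not the function, was at 21.3 and 30.7, and Vps9d1 at 31.2 and 32.3.

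Sorting nexins had the lowest family median by leading probe sets, though not by second probe sets. By second probe sets, Snx genes were at -0.102, Rab genes at -0.136 and Vps genes at -0.325. Only 32 of the 93 measured members have a second measured probe set, so those medians rest on part of each family. All 21 sorting nexins were measured, 14 had the higher follicular signal, and the median by leading probe sets was -0.26, beside -0.03 over all genes. At 1.5-fold, 6 of 21 (28.6%) were higher in follicular and 2 (9.52%) in marginal zone cells, beside 15.8% and 13.7% of all genes. None reached 2-fold. The median stayed below 0 under all 13 alternatives, from -0.31 to -0.10. It was -0.217 over the 18 nexins above the floor on both arrays, which leave out Snx21, Snx22 and Snx29.

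Several nexins carry a BAR domain, which bends membrane into tubules. Snx9, which binds dynamin and actin regulators at endocytic sites, was at 209.0 and 105.6, a follicular excess of 1.98-fold, and its second probe set gave a log2 ratio of -1.11. Snx2, a retromer partner, was at 364.7 and 226.1, 1.61-fold, and Snx6 at 56.1 and 34.4, 1.63-fold, with 3 probe sets from -1.23 to -0.15. Snx5, which pairs with Snx1 and Snx2 on retromer tubules, was at 2277 and 1634, 1.39-fold, with 4 of its 5 probe sets higher in follicular cells. Snx30 was at 91.4 and 60.4, 1.51-fold, Snx4 at 234.8 and 196.9, and Snx1 at 63.7 and 59.1. Snx18, the relative of Snx9, was at 48.1 and 40.1 with its second probe set at 0.47.

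The other nexins were more mixed. Snx3 and Snx12, retromer cargo adaptors made mainly of a PX domain, were at 282.2 and 249.2 and at 54.8 and 68.0. Snx10 was at 15.4 in follicular cells and 1.63-fold higher in marginal zone cells, and Snx14 at 22.8 and 36.6, 1.60-fold. Snx11 was at 24.0 and 15.9, a follicular excess of 1.51-fold, and Snx16 at 42.4 and 33.9. Snx17, which recycles integrins and lipoprotein receptors through retriever, was at 518.2 and 548.2, and Snx20, which binds the selectin ligand PSGL-1, at 26.1 and 28.2. Snx15 was at 26.7 and 32.0, and Snx19 at 27.3 and 27.9 with its second probe set at a log2 ratio of 0.62. Snx21, Snx22 and Snx29 exceeded the floor only in follicular cells, at 18.8, 15.7 and 20.1.

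**Figure D3:**
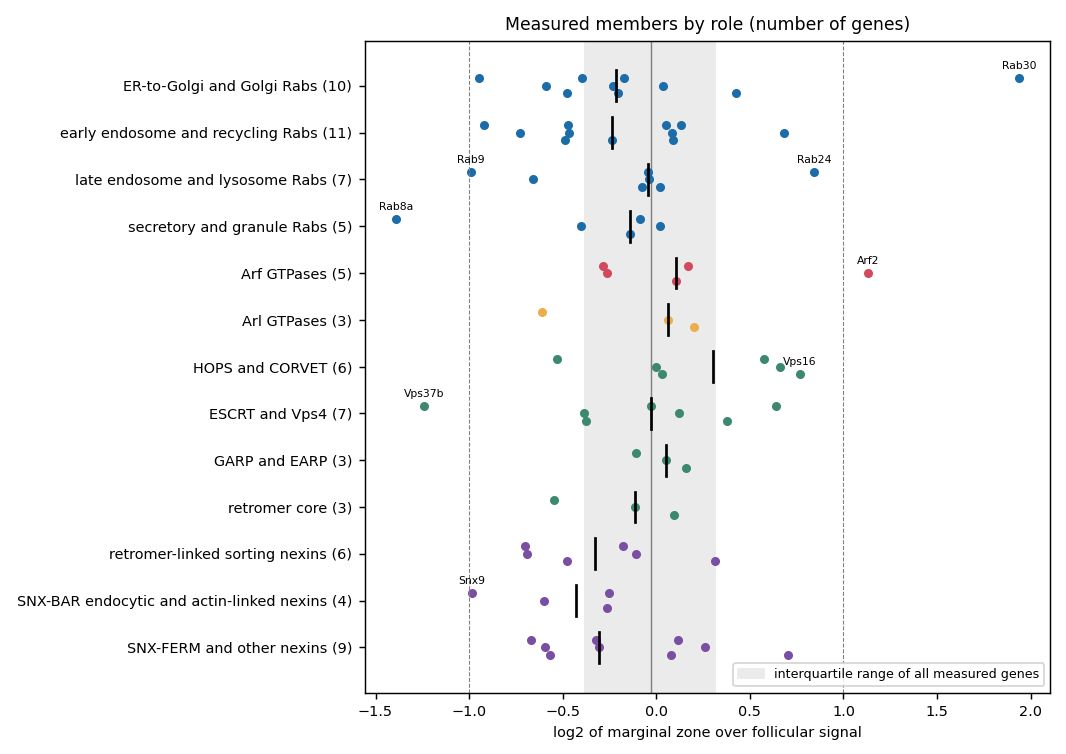
Log2 ratio, marginal zone to follicular signal (x axis) of measured members grouped by role (rows, number of genes in brackets); partner genes and 4 small groups are left out. Points are genes coloured by family, short black bars group medians, the grey band and thin line the interquartile range and median of all measured genes, and dashed lines 2-fold. The group drawn as HOPS and CORVET, with Vps33b, has a median of 0.31, and the 4 nexins of the row with Snx9 one of -0.43.

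TCACGTGA, the core of the element that TFEB and its relatives bind at lysosomal genes, was searched for because several members serve late endosomes. It was present in 6 of the 121 member windows (4.96%), from 5 genes, and in 0.785% of all 32851 windows; windows of 1 gene can overlap, and every match also holds CACGTG. The shorter motif was in 16 of 121 windows (13.2%) and 6.02% of all windows. The matches are shown with up to 20 bases on each side, cut at the start site, with the motif in capitals, GRCm38.p6.
Vps16 (chr2:130424281-130424319, + strand): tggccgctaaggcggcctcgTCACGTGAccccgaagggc
Vps26a (chr10:62486961-62487008, - strand): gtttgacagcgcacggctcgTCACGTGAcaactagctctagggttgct
Rab5a (chr17:53479118-53479165, + strand): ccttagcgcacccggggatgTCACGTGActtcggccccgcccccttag
Rab21 (chr10:115315595-115315642, - strand): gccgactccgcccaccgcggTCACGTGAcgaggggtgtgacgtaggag
Arl2 (chr19:6141179-6141226, - strand): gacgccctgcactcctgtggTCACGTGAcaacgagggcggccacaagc
The first base of the match lies 19 bases before the start in Vps16, 31 in Rab21, 69 in Arl2, 96 in Rab5a and 183 in Vps26a. The 5 genes did not share a direction: Vps16 was higher in marginal zone cells at a log2 ratio of 0.77, Rab5a was at 0.05, and Rab21, Vps26a and Arl2 were at -0.49, -0.55 and -0.61.

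Among genes that act on or beside these families, Pik3r4, Ptpn23, Sorl1 and Rabgap1l differed by more than any member. Each list is read beside 4.39% of all genes past 2-fold towards marginal zone cells, 4.86% towards follicular cells, and a median of -0.03. Of 24 measured Rab escort proteins, exchange factors and GTPase activators, 1 passed 2-fold towards marginal zone and 4 towards follicular cells, with a median of -0.21. Rabgap1l, a Rab GTPase activator, was at 314.1 and 78.1, a follicular excess of 4.02-fold, and Tbc1d1, another, at 58.2 and 21.6, 2.70-fold, with a second probe set at -0.25 on the log2 scale. Rabggta, a subunit of the enzyme that attaches the lipid anchor to Rabs, was at 35.8 and 98.1, 2.74-fold higher in marginal zone cells. Its partner subunit Rabggtb was at 122.3 and 140.8.

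Rab effectors had a median of 0.16 over 18 genes, 1 of them past 2-fold, beside 4.39% of all genes in that direction. Golga4, a Golgi tether, was at 58.2 and 118.3, 2.03-fold higher in marginal zone cells, Ehd1, of endocytic recycling, at 205.0 and 386.2, and Rilpl2 at 336.5 and 616.8. Ehd1 also had a probe set at -0.23 on the log2 scale. Of 28 measured Arf regulators and effectors, 2 passed 2-fold towards follicular cells, the GTPase activator Smap2 at 112.0 and 46.8 and the Arf-dependent adaptor Gga2 at 230.2 and 114.6. No gene of that list reached 2-fold in marginal zone cells. Its largest difference in that direction was the COPI subunit Copb2, at 90.2 and 156.0, with another probe set at -0.17.

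Of 21 measured ESCRT partners, 3 passed 2-fold towards marginal zone and 2 towards follicular cells, beside 4.39% and 4.86% of all genes, with a median of 0.21. Ptpn23, which joins ESCRT complexes, was at 17.4 and 84.8, 4.88-fold higher in marginal zone cells. Chmp3, an ESCRT-III subunit, was at 12.1 and 28.2, at least 2.23-fold apart, and Chmp1b, another, at 214.2 and 97.4, a follicular excess of 2.20-fold. Endosomal phosphoinositide and retromer partners had 1 and 3 such genes of 26, read beside the same shares. Pik3r4, also known as Vps15, the regulatory subunit of the endosomal lipid kinase Vps34, was at 213.3 and 1102, 5.16-fold higher in marginal zone cells. The kinase gene Pik3c3 itself was at 17.3 and 13.9. Sorl1, a sorting receptor carried by retromer, was at 533.0 and 124.4, a follicular excess of 4.28-fold with another probe set at a log2 ratio of -1.56. Ccdc93, of the complex that works with retriever, was at 98.7 and 28.6, a follicular excess of 3.45-fold, but another of its probe sets gave 0.02 on the log2 scale.

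Endosomal SNAREs, which carry out membrane fusion, had a median of 0.04 over 31 genes with 1 past 2-fold in each direction, beside 4.39% and 4.86% of all genes. Stx12 was at 28.4 and 13.7, a follicular excess of 2.08-fold. Stx8 was at 46.0 and 93.8, 2.04-fold higher in marginal zone cells with another probe set at -0.40, and Stx3 at 26.1 and 50.1, 1.92-fold higher there. These 3 SNAREs sit on different endosomal and plasma membrane routes.

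**Figure D4:**
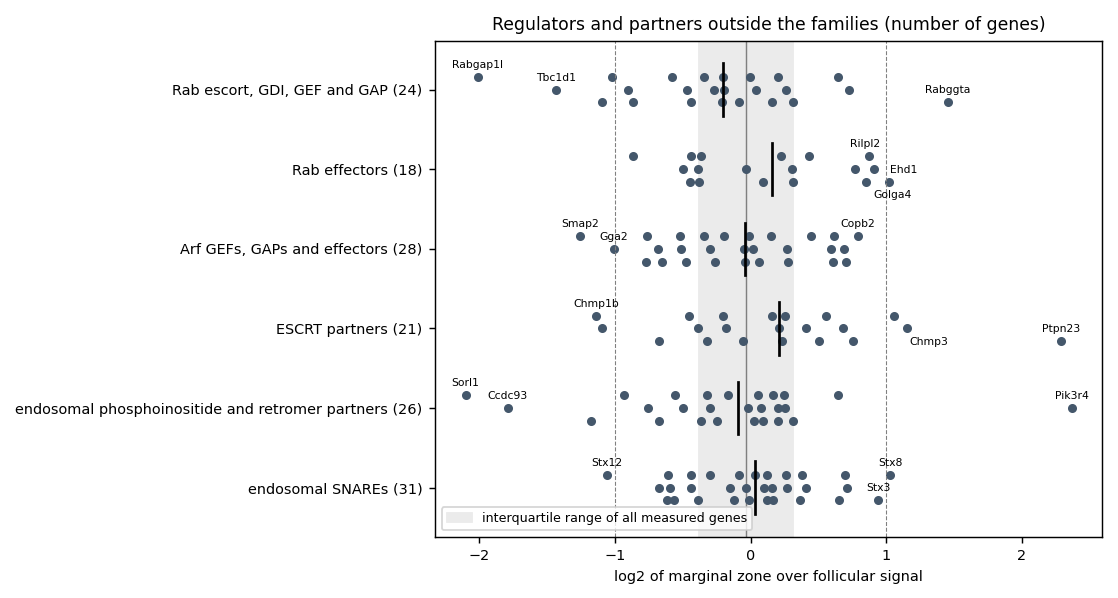
Log2 ratio, marginal zone to follicular signal (x axis) of measured regulators and partners in 6 lists (rows, number of genes in brackets); points are genes, black bars list medians, the grey band and thin line the interquartile range and median of all measured genes, and dashed lines 2-fold. The 3 genes with the largest absolute ratio of each list are named, with Pik3r4 at 2.37 and Sorl1 at -2.10 as the ends.

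The 24 members below the floor on both arrays were Arf5, Arl16, Rab3a, Rab3b, Rab3c, Rab3il1, Rab4a, Rab6b, Rab11fip5, Rab13, Rab17, Rab20, Rab23, Rab25, Rab27a, Rab27b, Rab32, Rab34, Rab40b, Vps13c, Vps25, Vps26b, Vps45 and Vps50. Several of them are known from other tissues, such as Rab3a of neuronal synapses and Rab25 of epithelia. A signal below the floor does not show that a transcript was absent.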

How the data were processed

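Per the labels' protocols, about 100 ng of RNA from sorted, pooled splenic B cells was labelled in a 2-cycle reaction and hybridised to 1 array per population. The deposited table holds a linear signal intensity for each of 22626 probe sets, MAS5 signals per the submitters' processing notes; neither the scaling target nor the MAS5 version is stated in the sources used here. Each array was multiplied to the same 2% trimmed mean (factors 1.01 and 0.990), values under 12.7 were raised to it, and each gene took its brightest measured probe set by mean log2 signal. The platform annotation gave 20380 probe sets 1 gene, of which 20351 matched RefSeq's GRCm38.p6 table by Entrez identifier; 691 with several genes and 1555 unlisted were left out. Members, role groups and gene lists were chosen with earlier results of these data known, and some members were placed in a role group after the array was read. Values are given for members past 1.5-fold, for described role groups and for members whose probe sets disagree in sign, and for up to 3 genes by absolute log2 ratio in each list of non-members. Rabggtb, Pik3c3, the markers named and the sequences around TCACGTGA were chosen outside that rule, with values seen. Scripts were tested on simulated data. There were 14 alternative settings and 2 chosen after seeing the data, genes above the floor on both arrays and the HOPS and CORVET group without Vps33b. The number of arrays limits the precision. Tools were Python 3.11.15, numpy 2.4.6, pandas 2.3.3 and matplotlib 3.10.9.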

Additional observations from a re-analysis of the deposited data

How the results depend on the processing

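No paired analysis was possible because each population has 1 array. Members past 2-fold numbered 3 towards marginal zone and 2 towards follicular cells. The other scalings gave the same counts. They were 6 and 10 with a floor at the 25th percentile, where 11.6% and 12.6% of all genes passed, 5 and 8 with no floor (10.2% and 11.3%), and 1 and 5 with a pseudocount. A floor at the 75th percentile left 1 towards follicular cells, and the second probe set, which 32 members have, left 0 towards marginal zone cells. The counts were 11 and 16 at 1.5-fold, and 1 and 0 at 3-fold. With the second probe set the median log2 ratio was -0.325 for Vps, opposite in sign to the reported one, 0.126 for Arf and Arl, and -0.102 for Snx genes. With plain probe sets the Arf and Arl median was -0.114, opposite in sign; why was not tested. The Rab, Snx and all-member medians stayed below 0 under all 13 alternatives run on them. None of the 27 members past 1.5-fold changed sign. Of their 276 values, 266 stayed within 0.366 of the reported log2 ratio, the root mean square SD between probe sets. That limit is wide: Rab3gap2 at 0.678 with a pseudocount, against 1.009, counted as close. A member not measured under a setting gave no value there and was not counted. Of the 27 members, only Rab24, Snx6 and Snx9 had a second measured probe set. The scalings, floors and pseudocount keep the sign of a ratio or shift it little, so for the other members the sign was hardly open to change. Members nearer to equality did change sign with another probe set, such as Rab1a, Rab7 and Snx18. Rab5b reached -4.58 and Snx29 -2.62 with no floor. The HOPS and CORVET median without Vps33b, tried after seeing the data, was 0.03.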
